A study of Mus musculus with 5 samples.

Results

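Genes of MHC class II antigen presentation were followed in mouse bone marrow-derived macrophages on their way to becoming osteoclasts, large bone-resorbing cells with many nuclei. The set comprised 8 genes chosen for their place in the pathway: H2-Aa, H2-Ab1, H2-Eb1, H2-DMa, H2-DMb2, Cd74, Ciita and Ifi30. A gene was followed where the array's annotation gave it a row of its own, which held for 7 of the 8, out of 22180 genes with such a row. Cd74, the invariant chain, shares its only row with a microRNA gene, so no value is given for it. All cells came from wild-type mice aged 10 weeks, whose strain the labels do not give, and were grown on plastic. The 5 groups were bone marrow-derived macrophages at day 0, differentiating cells at day 1, day 2 and day 3, and cells that the labels call mature osteoclasts at day 5. The cultures received M-CSF (20 ng/ml), which keeps macrophages alive, and RANKL (30 ng/ml), which directs them towards osteoclasts. Every culture day gave 1 Affymetrix array, for which labelled cDNA came from 5 ng of total RNA. No group had a replicate, so no test could be run, no p-value or SD is given, and each difference compares single arrays. Macrophages cultured as long without RANKL were not among the groups, so RANKL and time in culture cannot be told apart. In such bulk RNA, fewer cells of a type and less RNA per cell cannot be told apart either.

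MHC class II molecules are pairs of an alpha and a beta chain that carry peptides from endosomes to the cell surface, where CD4+ T cells read them. The invariant chain Cd74 fills the binding groove until endosomal proteases cut it down, and the H2-DM heterodimer then exchanges the last fragment for an antigen peptide. Transcription of the chain, H2-DM and invariant chain genes depends on Ciita, a coactivator that docks on factors bound to the X and Y boxes of their promoters. Macrophages carry class II molecules at a level that interferon-gamma raises, and osteoclasts come from the same myeloid precursors.

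The promoters are shown because the chain and H2-DM genes share a control module and yet had different time courses. RefSeq promoter sequences (assembly GRCm38.p6, 250 bases before to 50 after the start) matched 5 of the 8 genes: H2-Aa, H2-Eb1, H2-DMa, H2-DMb2 and Ifi30. H2-DMb1, the neighbouring copy of H2-DMb2, is added for comparison. The 150 bases before the start follow, 5′ to 3′ on the strand of the gene. Capitals mark the Y box core TGATTGG and the X1 box core CTAGNAAC. The windows are chr17:34287824-34287973 on the minus strand for H2-Aa, chr17:34305717-34305866 on the plus strand for H2-Eb1, and chr17:34145099-34145248 on the plus strand for H2-DMb2. Those of H2-DMb1 and Ifi30 are chr17:34153041-34153190 on the plus strand and chr8:70766664-70766813 on the minus strand.
H2-Aa: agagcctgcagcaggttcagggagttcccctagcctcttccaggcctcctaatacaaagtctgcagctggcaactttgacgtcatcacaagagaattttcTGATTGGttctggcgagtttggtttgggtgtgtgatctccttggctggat
H2-Eb1: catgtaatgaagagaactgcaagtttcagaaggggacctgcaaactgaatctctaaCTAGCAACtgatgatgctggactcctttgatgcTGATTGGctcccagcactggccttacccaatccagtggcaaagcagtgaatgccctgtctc
H2-DMb2: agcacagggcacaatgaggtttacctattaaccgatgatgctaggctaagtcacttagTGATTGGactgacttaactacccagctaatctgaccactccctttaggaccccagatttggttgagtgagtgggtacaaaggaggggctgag
H2-DMb1: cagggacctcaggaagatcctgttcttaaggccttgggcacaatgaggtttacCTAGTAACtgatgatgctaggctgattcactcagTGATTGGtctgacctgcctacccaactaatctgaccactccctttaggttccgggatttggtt
Ifi30: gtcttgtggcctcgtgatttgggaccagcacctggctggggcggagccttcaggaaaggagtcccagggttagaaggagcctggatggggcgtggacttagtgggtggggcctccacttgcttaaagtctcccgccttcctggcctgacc
Searched on both strands of the full promoters, the Y box core was found in 3 of these 5 class II pathway genes, H2-Aa, H2-Eb1 and H2-DMb2. It began 50, 61 and 92 bases before their starts. It was also found in all 4 of the other chain genes with a promoter sequence, H2-DMb1, H2-Oa, H2-Ob and H2-Eb2, and in 7.82% of the 32851 mouse promoters searched. The X1 box core, present in 3.62% of all promoters, was found in H2-Eb1, 94 bases before the start, and in H2-DMb1, H2-Ob and H2-Eb2. In H2-DMb1 and H2-Ob it began 97 and 90 bases before the start, upstream of the Y box core as in H2-Eb1. In H2-Eb2 it began 12 bases before the start, downstream of the Y box core, which began at 102. The interferon-gamma-activated site TTCNNNGAA, present in 8.30% of all promoters, was found only in H2-DMb2 among the 5. Neither H2-DMa, with 2 listed starts, nor Ifi30 held any of these letters. The windows of H2-DMa, not printed, are chr17:34122682-34122831 and chr17:34125368-34125517 on the plus strand. Whether these cells use either start was not tested, so the absence covers those 2 starts only. A match describes these letters only, and the arrays do not measure binding. The matches did not overlap one another.

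At day 5 the 7 genes differed in direction. The classical chain genes H2-Aa and H2-Ab1 and the thiol reductase Ifi30 were at least 2-fold higher at day 5 than at day 0, and the chain gene H2-Eb1 was 1.72-fold higher. The peptide editor gene H2-DMb2 was 2.54-fold lower and its partner H2-DMa 1.63-fold lower. Ciita, the coactivator of the class II genes, differed by 0.14 or less on the log2 scale between any of the days. Of the 7 genes, 3 were thus at least 2-fold higher at day 5, 1 was at least 2-fold lower and 3 were neither. Over the 12049 genes of the array above the level filter, called measured here, 6.78% were at least 2-fold higher and 6.56% at least 2-fold lower at day 5 than at day 0. The filter is 4.89, the median row mean on the log2 scale, and all 7 genes lay above it on every array. Their median log2 difference was 0.78, against 0.00 over all measured genes. With 7 genes chosen as a pathway, this count describes them and no more. As a yardstick of measurement noise, the day 5 minus day 0 difference disagreed between 2 rows of the same gene with an SD of 0.42 for 1 row, over 500 genes. This yardstick says nothing of the variation from culture to culture. The differences of 6 of the 7 genes were larger than this in size, the exception being Ciita.

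**Figure D1:**
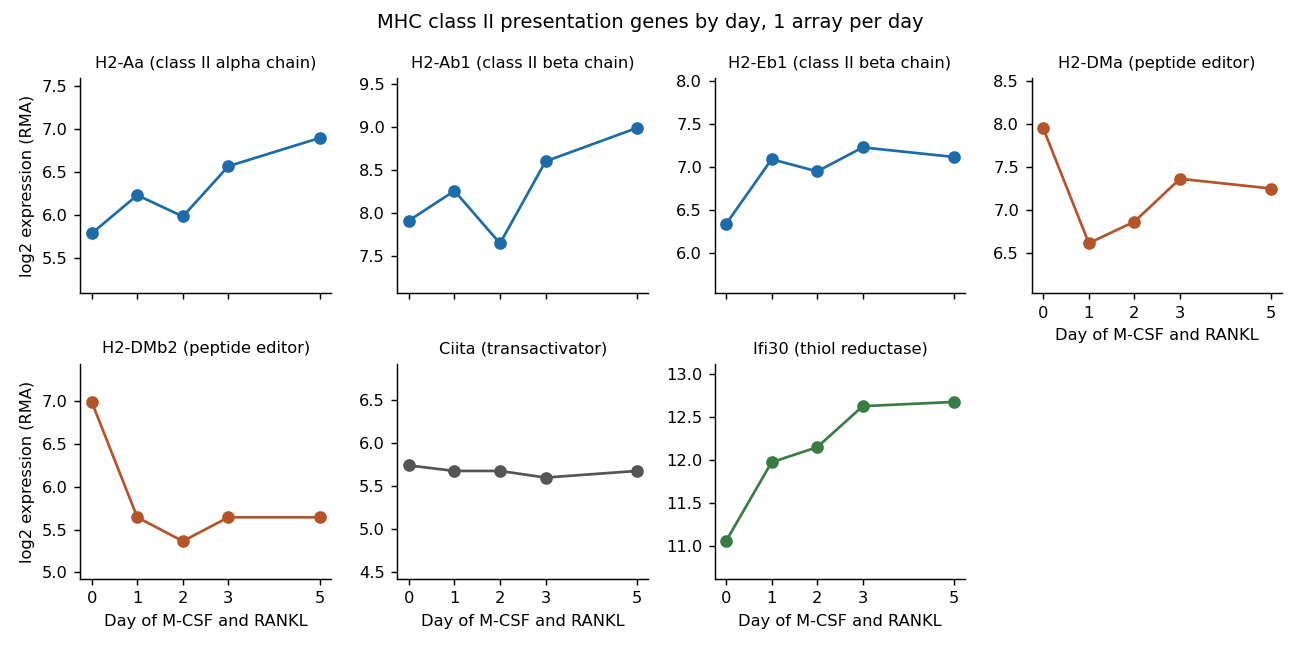
Log2 expression (RMA) on the y axis against day of culture on the x axis for each of the 7 genes, 1 array per day, with the same span of 2.5 log2 units in every panel. H2-Aa, H2-Ab1 and Ifi30 ended highest at day 5, H2-DMa and H2-DMb2 were highest at day 0, and Ciita stayed between 5.59 and 5.74.

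H2-Aa (Entrez 14960) encodes the alpha chain of the classical molecule I-A. Its log2 expression was 5.78, 6.23, 5.98, 6.57 and 6.90 at days 0, 1, 2, 3 and 5. The day 5 array was highest and the day 0 array lowest, with a small dip at day 2. Day 5 minus day 0 was 1.11 on the log2 scale, 2.16-fold, a larger difference than 94.2% of measured genes had. H2-Ab1 (Entrez 14961) encodes the beta chain that pairs with it. Its log2 expression was 7.91, 8.26, 7.65, 8.60 and 8.99 over the same days. The day 2 array was the lowest and the day 5 array the highest, so the order of the days differed from that of H2-Aa only in that day 2 lay below day 0. Day 5 minus day 0 was 1.08, or 2.11-fold.

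H2-Eb1 (Entrez 14969), the beta chain of the other classical molecule, I-E, had log2 expression of 6.33, 7.09, 6.95, 7.23 and 7.11 at days 0, 1, 2, 3 and 5. The day 0 array stood below the other 4, which lay within 0.28 of each other. Its day 5 minus day 0 difference was 0.78, and 0.03 of this lay between day 1 and day 5. The 3 classical chain genes therefore shared a low day 0 value relative to day 5, but H2-Eb1 reached its later level by day 1, and H2-Aa and H2-Ab1 were still higher at day 5 than at day 3.

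H2-DMa and H2-DMb2 were lower at day 5 than at day 0, whereas H2-DMb1 was not. H2-DMa (Entrez 14998), the alpha chain of the peptide editor, had log2 expression of 7.95, 6.61, 6.86, 7.36 and 7.25 at days 0, 1, 2, 3 and 5. Its lowest array was day 1, after which it stood part of the way back towards day 0. The difference at day 5 against day 0 was -0.70, whereas at day 1 against day 0 it was -1.34. H2-DMb2 (Entrez 15000), a beta chain of the same heterodimer, had log2 expression of 6.99, 5.64, 5.36, 5.64 and 5.64. It was highest at day 0 and showed no return, with the same deposited value at days 1, 3 and 5. Its difference at day 5 against day 0 was -1.35, lower than in 96.4% of measured genes. H2-DMb1, the second gene for that beta chain, held 6.17 on the log2 scale at days 0, 1, 2 and 5 and 6.48 at day 3. H2-DMb1 and H2-DMb2 are near-identical neighbours, and how far the probes of one row read the other transcript was not tested, so the values of both are uncertain. Repeated equal values are a property of the RMA summary, and for 8.0% of measured genes the day 5 value exactly equalled that of day 0.

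Ciita (Entrez 12265) had log2 expression of 5.74, 5.67, 5.67, 5.59 and 5.67 at days 0, 1, 2, 3 and 5. The 5 arrays spanned 0.14, with equal values at days 1, 2 and 5. Its row lay above the level filter but in the lower part of the scale, where background compresses differences. Ifi30 (Entrez 65972) encodes GILT, the thiol reductase that opens disulphide bonds of antigens in the endosome, and it sits outside the class II region, on chromosome 8. Its log2 expression was 11.06, 11.98, 12.15, 12.63 and 12.68 at days 0, 1, 2, 3 and 5. Each array stood above the one before. Day 5 minus day 0 was 1.62, or 3.08-fold, and 97.0% of measured genes had a smaller difference.

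Most of the divergence of the 3 classical chain genes from H2-DMa and H2-DMb2 was present after the first day. Day 1 minus day 0 was 0.45 for H2-Aa, 0.35 for H2-Ab1, 0.76 for H2-Eb1 and 0.92 for Ifi30, against -1.34 for H2-DMa and -1.35 for H2-DMb2. In that step 0 of the 7 genes were at least 2-fold higher and 2 at least 2-fold lower, where 2.91% of measured genes were higher and 4.17% lower. Only 2.03% of measured genes had a lower difference in this step than H2-DMb2. Macrophage markers moved with H2-DMa and H2-DMb2 in this step: at day 1 against day 0 their median was -1.24, 5 of 9 being at least 2-fold lower and 0 at least 2-fold higher. Among them, Fcgr1, an IgG receptor, was at -3.61, Mertk, a receptor for dying cells, at -2.83 and Adgre1 at -1.24. Their summed linear signal was 35936, 20400, 19742, 25762 and 26804 at days 0, 1, 2, 3 and 5, lowest at day 2 and part of the way back by day 5. The part of these markers in the H2-DM values was not tested.

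For the I-A chain genes day 2 lay below day 1 and day 3, and it was the lowest array of H2-Ab1 but not of H2-Aa. Day 2 minus day 1 was -0.61 for H2-Ab1, -0.25 for H2-Aa, -0.14 for H2-Eb1 and -0.28 for H2-DMb2. H2-DMa and Ifi30 were at 0.25 and 0.17. The row-to-row SD for that step was 0.27, which only H2-Ab1 and H2-DMb2 exceeded in size. None of the 7 passed 2-fold in either direction in that step, in which 2.46% of measured genes were at least 2-fold higher and 0.556% at least 2-fold lower. From day 2 to day 3 the difference was 0.96 for H2-Ab1, 0.59 for H2-Aa, 0.50 for H2-DMa, 0.48 for Ifi30 and 0.28 for both H2-Eb1 and H2-DMb2. Here too 0 of the 7 passed 2-fold, against 2.08% of measured genes higher and 3.91% lower. All 6 genes other than Ciita had a positive difference in this step, with a median over the 7 of 0.48 against 0.00 for measured genes. The row-to-row SD for this step was 0.29, which 4 of the 7 exceeded in size and H2-Eb1, H2-DMb2 and Ciita did not. Between day 3 and day 5 the arrays were close, with 0.158% of measured genes at least 2-fold higher and 0.116% lower, and 0 of the 7 in either count. H2-Ab1 (0.39) and H2-Aa (0.33) still exceeded the row-to-row SD of 0.22 for that step, and the other 5 genes did not.

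**Figure D2:**
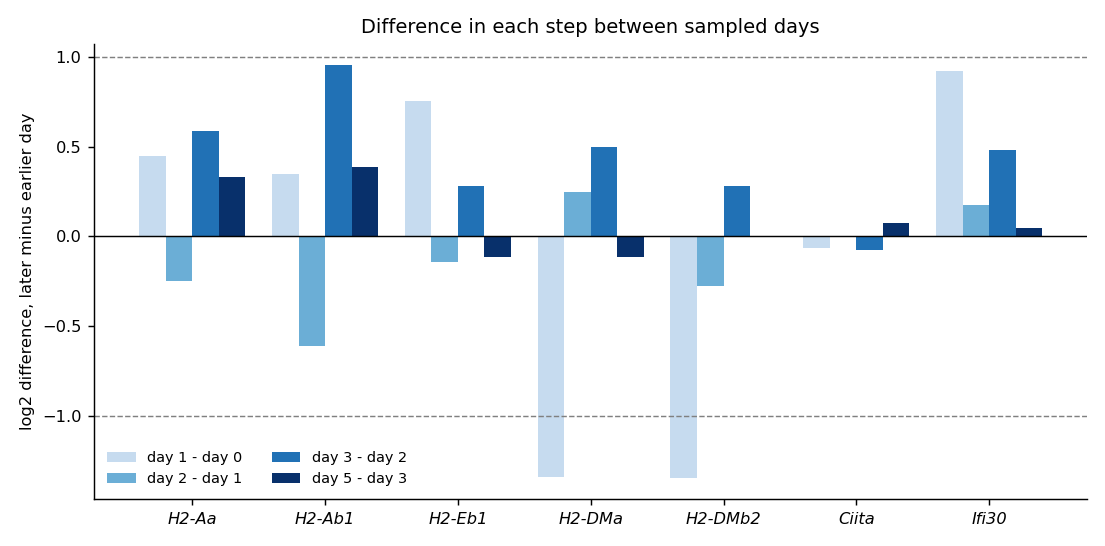
Log2 difference, later minus earlier day, on the y axis for each gene on the x axis, with 1 bar for each of the 4 steps between sampled days and dashed lines at 2-fold. H2-DMa and H2-DMb2 passed 2-fold lower at day 1 against day 0 (-1.34 and -1.35), and the largest later bar is that of H2-Ab1 at day 3 against day 2 (0.96).

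With day 1 as the starting point, 0 of the 7 genes were at least 2-fold higher and 0 lower at day 5, against 6.3% and 6.73% of measured genes. H2-Ab1 was then at 0.73, Ifi30 at 0.70, H2-Aa at 0.67 and H2-DMa at 0.64 on the log2 scale, and H2-Eb1 at 0.03. From that day H2-DMa thus had a difference of about the size of those of the I-A chain genes. H2-DMb2 and Ciita held exactly their day 1 values. With day 3 in place of day 5 against day 0, Ifi30 was the 1 gene at least 2-fold higher and H2-DMb2 the 1 at least 2-fold lower, where 7.29% and 7.5% of measured genes were. The 2-fold calls therefore rest on the day 0 array, and those of H2-Aa and H2-Ab1 on the day 5 array as well.

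The time courses were compared by the root mean square difference of log2 profiles after each gene's own mean over the 5 days was removed, a distance in log2 units. The alpha and beta chains of I-A lay close, at 0.17: H2-Aa ranked 10 of 12048 measured genes by likeness to H2-Ab1, and H2-Ab1 ranked 74 by likeness to H2-Aa. H2-DMa and H2-DMb2 were 0.32 apart, with H2-DMa at rank 530 by likeness to H2-DMb2. Across the pairs the distance was 0.65 for H2-Ab1 and H2-DMa and 0.85 for H2-Aa and H2-DMb2. By likeness to H2-Eb1, H2-Aa was at 0.26 and rank 1540, Ifi30 at 0.31 and rank 3018, Ciita at 0.36 and rank 5431, and H2-Ab1 at 0.40 and rank 6702 of 12048. H2-Ab1 stood 55.6% of the way down that ranking. These ranks are over 5 arrays and reflect the size of the differences between days as well as the shape. The rank of the nearly flat Ciita therefore does not mean that its course was shaped like that of H2-Eb1.

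The genes whose courses were most like that of H2-Aa were H2-K2 (distance 0.07), Hscb (0.08) and Zfp119b (0.09). For H2-Ab1 they were Gpr162 (0.07), Tmem176b (0.10) and H2-Ke6 (0.14), of which H2-Ke6 carries a name from the MHC region, as does H2-K2. Kctd12 (0.07), Bmp2k (0.07) and Frmd4b (0.08) were nearest to H2-DMa. Lyzl4 (0.04), Arhgap15 (0.05) and Ncf1 (0.05), which encodes a subunit of the phagocyte NADPH oxidase, were nearest to H2-DMb2. Stxbp3 (0.05), Nmnat3 (0.07) and Aldh1b1 (0.08) were nearest to Ifi30.

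Along chromosome 17 the genes of the class II region differed in direction. In the annotation's order the 14 protein-coding genes are H2-Oa, Brd2, H2-DMa, H2-DMb2, H2-DMb1, Psmb9, Tap1, Psmb8, Tap2, H2-Ob, H2-Ab1, H2-Aa, H2-Eb1 and H2-Eb2. Of these, 11 were measured, and the day 5 minus day 0 difference was at least 2-fold higher in H2-Ab1, H2-Aa and Tap2 and at least 2-fold lower in H2-DMb2. Over all measured genes the shares were 6.78% higher and 6.56% lower. All of those named but Tap2 belong to the set chosen at the outset. Tap2, a subunit of the transporter that feeds peptides to class I molecules, had log2 expression of 7.39, 7.16, 8.28, 9.23 and 8.79 at days 0, 1, 2, 3 and 5. Its partner Tap1 differed by 0.51 and the immunoproteasome genes Psmb9 and Psmb8 by 0.31 and -0.07. The lower genes H2-DMa and H2-DMb2 sit side by side, and so do the higher ones H2-Ab1 and H2-Aa.

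**Figure D3:**
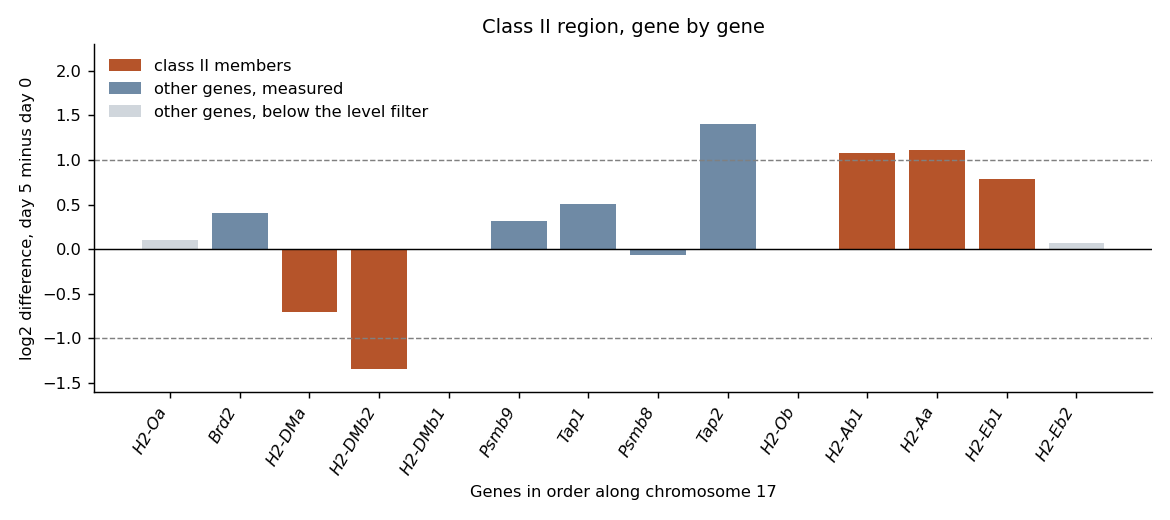
Log2 difference, day 5 minus day 0, on the y axis for the 14 genes of the class II region in chromosome order on the x axis, with dashed lines at 2-fold and pale bars for the genes below the level filter. H2-DMa (-0.70) and H2-DMb2 (-1.35) point down at one end and H2-Ab1 (1.08), H2-Aa (1.11) and H2-Eb1 (0.78) point up at the other, and H2-DMb1 and H2-Ob are at 0.00.

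The remaining chain genes were at the lower end of the scale. H2-Oa and H2-Ob, which encode the inhibitor of H2-DM, lay between 4.41 and 4.72 and between 3.90 and 4.13 on the log2 scale over the 5 arrays, below the filter. H2-Eb2 lay between 4.53 and 4.93, with a mean below the filter. H2-Ea, the alpha chain of I-E, held 2.82 at day 0 and 2.86 on each later array. Several common laboratory strains carry an H2-Ea promoter deletion and make no I-E, so H2-Eb1 RNA alone does not show that the I-E molecule was present.

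Around these genes, 8 fixed lists of other pathway genes held 67 measured genes, of which 5 were at least 2-fold higher and 6 at least 2-fold lower at day 5 than at day 0. These are 7.46% and 8.96%, near the 6.78% and 6.56% of all measured genes, and the median of the 67 was -0.05. Among the 7 factors that bind class II promoters, 0 were at least 2-fold higher and 0 lower (median -0.12). Within this list, Rfx5 was at -0.27, Rfxap at 0.09 and Rfxank at 0.09, the subunits of the X box factor. The Y box factor genes Nfya, Nfyb and Nfyc were at -0.89, -0.12 and 0.14, and Creb1, of the X2 box, was at -0.79. Nfya had log2 expression of 10.58, 10.28, 10.13, 9.63 and 9.70 at days 0, 1, 2, 3 and 5, and Creb1 was likewise highest at day 0 and lower on each later array.

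Of 11 measured genes upstream of Ciita, 2 were at least 2-fold higher, 1 was lower and 8 were neither at day 5 (median -0.05). Prdm1 encodes Blimp1, a repressor of the Ciita gene in plasma cells and also of macrophage genes in osteoclasts. Its log2 expression was 7.15, 9.35, 10.05, 10.15 and 9.71 at days 0, 1, 2, 3 and 5, a difference of 2.56 at day 5. Irf8, an interferon regulatory factor of macrophages, ran opposite, with 9.17, 7.39, 6.80, 7.73 and 7.84 and a difference of -1.33. Its lowest array was day 2, and its day 1 value lay below that of day 5. The third was Spi1, which encodes the myeloid factor PU.1, with 9.59, 10.14, 10.45, 10.74 and 10.69 and a difference of 1.10. Irf1, through which interferon-gamma reaches Ciita, had 6.78 at days 0, 1 and 5, 6.39 at day 2 and 7.06 at day 3. The interferon-gamma gene Ifng itself lay between 4.41 and 4.72 on every array, below the filter.

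Among 11 endosomal proteases and their inhibitors, with a median difference of -0.22, 0 passed 2-fold upwards and 1 downwards. At day 3 against day 0, 3 were at least 2-fold lower, Ctsc (-2.0), Ctsl (-1.28) and Lgmn (-1.03), beside 7.5% of measured genes. At 1.5-fold 4 were lower at day 5 against day 0, beside 14.2% of measured genes. The lower one at day 5 was Ctsc, a dipeptidyl peptidase, whose log2 expression was 11.66, 10.22, 9.99, 9.67 and 10.13 at days 0, 1, 2, 3 and 5. Ctss, a cathepsin that makes late cuts in the invariant chain, was at -0.23 and the inhibitor Cstb at 0.47. Among 9 genes of class II traffic and turnover, 0 were higher and 1 was lower (median -0.21). This was the tetraspanin Cd81 at -1.21, and Cd82, another tetraspanin of class II compartments, had the highest difference at 0.61.

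Of 9 measured costimulatory genes, 1 was at least 2-fold higher and 3 at least 2-fold lower, around a median of -0.42, beside 6.78% and 6.56% of all measured genes. A level filter at the 75th percentile of rows (7.11) removed all of the genes so counted, whose means were at most 6.81, and so left 0 higher and 0 lower. Tnfsf9, the ligand of the T cell receptor 4-1BB, had log2 expression of 8.38, 7.77, 6.52, 5.73 and 5.63 at days 0, 1, 2, 3 and 5, lower on each successive array. Its difference at day 5 was -2.76. Icosl, the ligand of ICOS, had 6.68 at day 0 and between 4.97 and 5.03 afterwards, a difference of -1.65. Cd40, the receptor through which helper T cells signal, was at -1.05 against day 0 and at -0.04 against day 1. Cd274, which encodes the inhibitory ligand PD-L1, had 5.82, 7.28, 6.91, 7.06 and 6.94, a difference of 1.12 that was complete by day 1.

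The list of the MIF receptor complex, in which surface Cd74 takes part, held 5 genes, including the ligand genes Mif and Ddt. Of these 5, 1 was at least 2-fold higher (median 0.27), beside 6.78% of measured genes. This was the chemokine receptor Cxcr4, with log2 expression of 8.99, 9.40, 9.10, 10.28 and 10.35 at days 0, 1, 2, 3 and 5. It stood high on the last 2 arrays, and the lowest difference in this list was that of Cd44, at -0.07. In class I presentation 1 of 14 genes, Tap2 (1.40), was at least 2-fold higher, 0 were lower and 13 were neither, with a median of 0.01 against 0.78 for the 7 class II pathway genes. The lowest there was the trimming peptidase Erap1, at -0.73.

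**Figure D4:**
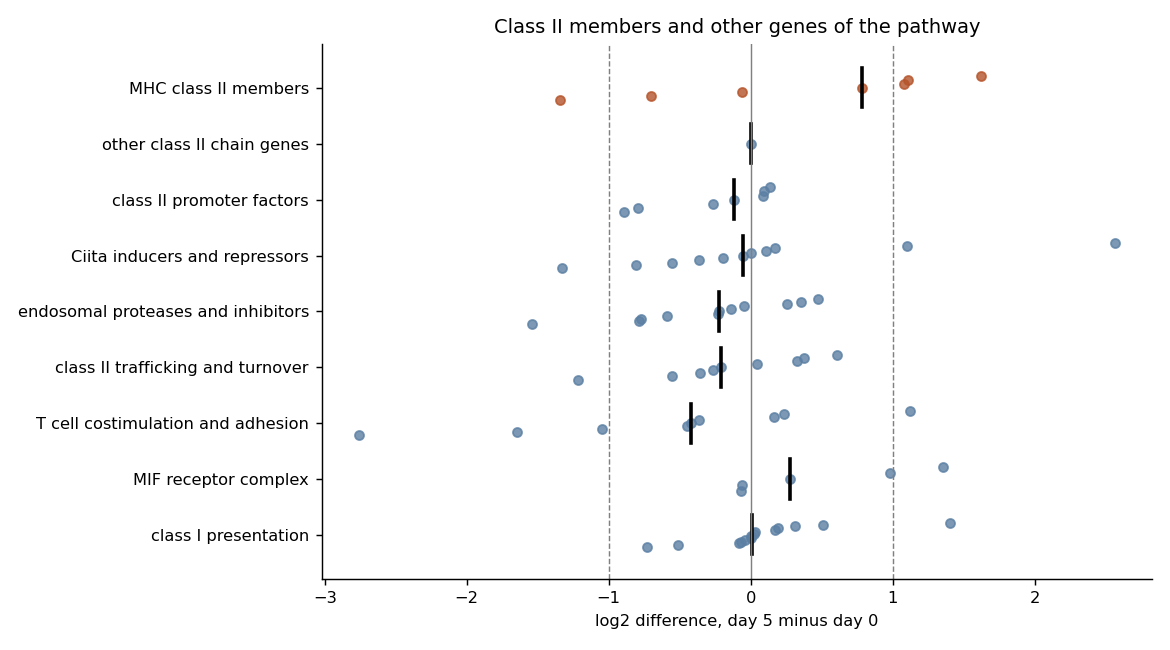
Log2 difference, day 5 minus day 0, on the x axis for the measured genes of each list, 1 point per gene, with the list's median as a black bar and dashed lines at 2-fold. The 7 class II pathway genes run from -1.35 to 1.62 with a median of 0.78, and the medians of the other lists lie between -0.42 and 0.27.

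Markers were checked beside these values. All 11 osteoclast markers were at least 2-fold higher at day 5, with Acp5 and Ctsk at 5.76 and 6.75, and of 9 macrophage markers 0 were higher and 3 lower, Cx3cr1 (-3.46), Fcgr1 (-2.54) and Mrc1 (-1.76). The macrophage genes Adgre1 and Csf1r were at -0.99 and -0.14. Of all measured genes, 6.78% were at least 2-fold higher and 6.56% at least 2-fold lower at day 5 than at day 0. The 5 arrays had medians of 4.88 to 4.92 (log2). Dendritic cells and B cells carry much class II. Of 9 dendritic cell markers, 8 lay above the filter at day 5 and 7 at day 0, and their summed linear signal was 628, 915, 597, 785 and 933 at days 0, 1, 2, 3 and 5. Of the 7 that were measured, Itgax (1.33), which macrophages and osteoclasts also express, was at least 2-fold higher and 0 were lower. Itgax had log2 expression of 7.57, 9.07, 7.95, 8.37 and 8.89. Like H2-Ab1, the summed signal of the dendritic cell markers was lowest at day 2 and highest at day 5. Itgax was the brightest of these markers on every array and so weighed most in the sum. The part of dendritic cells in the class II values was not tested. The 7 measured markers had a median difference of 0.14 at day 5 against day 0. Besides Itgax, Batf3 was at -0.37, Xcr1 at -0.24, Ccr7 at -0.19, Clec10a at 0.14, Cd209a at 0.18 and Siglech at 0.38. Among the markers with a mean below the filter, Flt3 lay between 4.32 and 4.47. Zbtb46, a factor of classical dendritic cells, had 4.27, 4.64, 4.64, 4.95 and 5.05 at days 0, 1, 2, 3 and 5. These values lay above the filter level on the last 2 arrays only, with a mean of 4.71. The Zbtb46 difference at day 5 against day 0 was 0.78, or 1.71-fold, the direction and size of that of H2-Eb1. The courses differed, since day 1 minus day 0 was 0.37 for Zbtb46 and 0.76 for H2-Eb1. The part of Zbtb46 was not tested either. Of 8 B cell markers, 1 lay above the filter at day 5 and 2 at day 0, and their summed linear signal was 164, 159, 158, 160 and 159 over the 5 days. Granulocyte markers were lower, 4 of 7 measured ones at least 2-fold, with summed signals of 1576, 1772, 803, 1010 and 719, and their part was not tested. T and NK cell markers had 1 of 7 above the filter at day 5.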

How the data were processed

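Expression was measured on 5 arrays, 1 per day, and each was assigned to its day by the time in its labels. Values were deposited as log2 expression, made by the authors with RMA (oligo, R 3.4.0), per the submitters' processing notes. RMA corrects background, forces the arrays to one distribution and summarises probes by median polish, so a shift of all genes cannot be seen and differences of dim rows are compressed. The sources used here give neither the submitters' genome build nor their probe annotation.

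The table held 41345 rows, of which 23521 named 1 gene, 1814 several and 16010 none in the platform annotation. Where a gene had several rows (1082 genes), its brightest row was used, and genes were measured at a mean of 4.89 or more, the median of the row means. All 7 class II pathway genes had a single row. Differences are later minus earlier log2 values, counted from 1 in size, which is 2-fold. Counting and profile likeness were tested on simulated data.

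The genes named were all 7, the genes of each list that were at least 2-fold apart (up to 4) with the extreme in each direction, a fixed set of regulators and chain genes, and the 3 nearest profiles of genes spanning 1 or more. The genes, lists and alternatives were chosen with earlier results of these data known. Alternatives changed scaling, rows, filter, size and days. Sequences are from RefSeq, GRCm38.p6. Python 3.11.15, numpy 2.4.6, pandas 2.3.3 and matplotlib 3.10.9 were used.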

Additional observations from a re-analysis of the deposited data

How the results depend on the processing

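At day 5 against day 0, 3 of the 7 class II pathway genes were at least 2-fold higher and 1 lower, and 5 and 6 of the other pathway genes. Centring each array on 12 reference genes kept these counts and the step counts within 1.5 times. It moved the median of the 7 by less than the row-to-row SD. Averaging rows and dropping the level filter could not change the values of the 7, which had 1 row each and lay above the filter. Both left the counts of the other pathway genes at 5 and 6. Counted from day 1, 0 were higher and 0 lower, and 1 other pathway gene was higher. With day 3 as the end, 1 was higher. A filter at the 75th percentile of rows kept only H2-Ab1, H2-DMa and Ifi30, which left 0 lower at day 5, 1 lower at day 1 and 3 other pathway genes lower. At 1.5-fold, 2 were lower at day 5 and 13 other pathway genes, beside 14.2% of measured genes. At that size 2 were higher at day 1 (9.87% of measured genes), 1 lower at day 2 against day 1 (4.71%) and 2 higher at day 3 against day 2 (7.82%). Of the 15 genes named for likeness, 11 stayed nearest by the largest absolute difference and 15 without the filter. No paired analysis was possible because each day had 1 array. The missing replicates limit every value, and dim rows such as Ciita are limited by background.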
